A study of Mus musculus with 10 samples.

Results

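Ciart, Bhlhe40, Bhlhe41, Usp2, Klf9, Klf10, Klf13 and Klf15 are 8 genes at the output side of the circadian clock, and they were followed here in the cerebellum of mice without Bmal1. They were chosen by name, by these symbols in the deposited tables, and all 8 were found among 22046 protein-coding genes. Each passed the filter on low values (a mean of at least 1 RPKM over the libraries compared) in total RNA and in ribosome footprints. The choice was made with earlier results of these data known.

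BMAL1, encoded by Arntl, is a transcription factor that pairs with CLOCK and switches on genes that carry the E-box sequence CACGTG. Some of these targets feed back: CIART (also called CHRONO) and the DEC proteins BHLHE40 and BHLHE41 repress the same complex, the DEC proteins by binding E-boxes themselves, and USP2 is a ubiquitin-specific protease that removes ubiquitin from clock proteins. The Krüppel-like factors KLF9, KLF10, KLF13 and KLF15 are zinc finger proteins that bind GC-rich and CACCC sequences, and in liver, muscle or skin several of them cycle with the clock or respond to glucocorticoids.

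The knockout animals were Bmal1-/- mice and the wild-type animals their Bmal1+/+ littermates, both from heterozygous crosses on a C57BL/6 background, under equal hours of light and dark. The knockout was in the whole body; a floxed line with L7-Cre is also named in the labels, but no library here has that genotype. Snap-frozen cerebellum was lysed with cycloheximide, which holds ribosomes on the mRNA, and libraries were made of nuclease-protected footprints and of total RNA. Values were analysed here for 2 knockout animals (knockout 1 and 3) and 2 wild-type animals (wild type 2 and 3), each with both kinds of library from its lysate. Age, sex and the time of day of dissection are not given in the sources used here. Every level below is therefore a level at an unstated clock time, and a change in amplitude cannot be told apart from a shift in phase. In whole tissue, fewer cells of a type and less RNA per cell cannot be told apart either.

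Recovered reads, explained with the processing, were 38.9 M and 43.2 M in knockout total RNA and 25.6 M and 27.8 M in wild-type total RNA. Footprint libraries had 41.0 M and 30.1 M reads in the knockout and 38.1 M and 27.7 M in the wild type. Depth and genotype went together in total RNA. Arntl itself had footprints of 124 and 107 RPKM in the knockout against 258 and 295 RPKM in the wild type, and total RNA of 267 and 272 RPKM in the knockout against 179 and 179 RPKM in the wild type. Its footprints were thus lower and its total RNA higher in both knockout animals, and the deleted stretch of the gene is not given in the sources used here. All 12 granule neuron markers and all 10 Purkinje cell markers had reads in every library.

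The start regions of the genes show how they differ in E-boxes. Promoter windows from RefSeq (build GRCm38.p6, which is mm10; 250 bases before the start site and 50 after it) were found for 6 of the 8 genes, Bhlhe40 and Klf10 being the others. The E-box CACGTG, which reads the same on both strands, was present 3 times in the Ciart window, 3 times in the Klf15 window and 1 time in the Bhlhe41 window. It was not in the windows of Usp2, Klf9 or Klf13. Of 32851 windows of the same length, 7.15% held at least 1 such E-box and 29 windows (0.0883%) held at least 3. The windows of Ciart, Klf15, Bhlhe41 and Usp2 are shown, the first 3 for their E-boxes, set in capitals, and the last as a gene counted among E-box targets whose window has none.
Ciart, chr3:95882179-95882478, minus strand: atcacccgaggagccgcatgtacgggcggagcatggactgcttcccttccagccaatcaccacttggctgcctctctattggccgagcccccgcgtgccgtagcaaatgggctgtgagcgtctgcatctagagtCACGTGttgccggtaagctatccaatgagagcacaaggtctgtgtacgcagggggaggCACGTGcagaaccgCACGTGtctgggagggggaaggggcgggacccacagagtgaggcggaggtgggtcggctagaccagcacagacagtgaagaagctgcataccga
Klf15, chr6:90462326-90462625, plus strand: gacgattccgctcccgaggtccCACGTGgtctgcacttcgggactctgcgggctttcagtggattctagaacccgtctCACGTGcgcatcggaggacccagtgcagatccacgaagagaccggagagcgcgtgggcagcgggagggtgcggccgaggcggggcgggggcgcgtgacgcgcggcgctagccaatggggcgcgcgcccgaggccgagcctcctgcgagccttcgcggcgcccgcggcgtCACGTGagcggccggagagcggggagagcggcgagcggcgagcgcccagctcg
Bhlhe41, chr6:145865371-145865670, minus strand: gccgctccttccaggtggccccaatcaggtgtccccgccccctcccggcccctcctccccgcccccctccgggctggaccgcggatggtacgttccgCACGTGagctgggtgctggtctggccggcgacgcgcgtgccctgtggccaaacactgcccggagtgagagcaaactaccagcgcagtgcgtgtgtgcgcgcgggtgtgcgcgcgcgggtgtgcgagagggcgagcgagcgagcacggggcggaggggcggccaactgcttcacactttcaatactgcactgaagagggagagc
Usp2, chr9:44084670-44084969, plus strand: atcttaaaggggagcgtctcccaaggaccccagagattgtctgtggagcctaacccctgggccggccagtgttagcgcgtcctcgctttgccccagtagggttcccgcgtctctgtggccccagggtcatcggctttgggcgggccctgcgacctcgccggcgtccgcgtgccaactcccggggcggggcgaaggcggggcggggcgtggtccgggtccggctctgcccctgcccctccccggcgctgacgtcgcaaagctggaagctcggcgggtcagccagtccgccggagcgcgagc

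In Ciart the E-boxes begin at -116, -58 and -44 from the start site, in Klf15 at -228, -172 and -3, and in Bhlhe41 at -153. The Usp2 window lies at a start site 17899 bases inside the GENCODE gene, so it does not cover the upstream start of that gene. The GC-box GGGCGG, searched on both strands, a sequence that SP and KLF proteins bind, was in 35.7% of all windows. It was found 2 times in Ciart, 4 times in Bhlhe41, 3 times in Usp2, 3 times in Klf13, 1 time in Klf15 and not in Klf9. Neither the E-prime box CACGTT (4.68% of windows), the D-box TTANGTAA (2.32%) nor the ROR element (0.219%), each searched on both strands, was in any of the 6 windows. The 6 windows were GC-rich (61.3% to 73.3%). A match is a description of the letters and not evidence of binding.

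**Figure D1:**
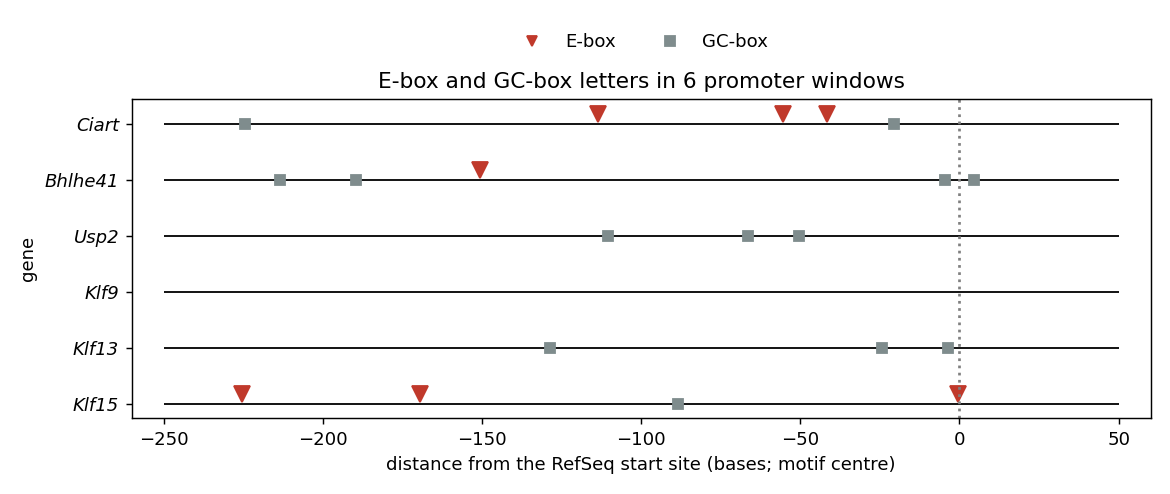
Positions of E-box letters (red triangles) and GC-box letters (grey squares) in the promoter windows of 6 genes, in bases from the RefSeq start site (dotted line). Ciart and Klf15 each have 3 E-boxes and Bhlhe41 has 1, while Usp2, Klf9 and Klf13 have none.

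In total RNA the 3 repressor genes were lower in the knockout. Ciart fell to 0.166 of the wild-type level, Bhlhe40 to 0.551 and Bhlhe41 to 0.643. Usp2, Klf15 and Klf9 had negative differences and Klf13 and Klf10 positive ones that did not pass the test. Called means a Benjamini-Hochberg adjusted p under 0.05 from limma on log2(RPKM + 1), and each log2 fold change is the knockout value less the wild-type value, with its standard error (SE). The 3 called of 8 stand against 4.09% of 12690 genes called (1.61% lower and 2.48% higher), and the 7 of 8 with an unadjusted p under 0.05 against 22.1%, in a set that was not chosen blind to these values. The median log2 fold change was -0.54 over the 8 genes and -0.02 over all genes tested. With 2 libraries a genotype, groups that do not overlap are common. Both knockout libraries lay below both wild-type libraries in 30.3% of the 12690 genes and above them in 24.7%.

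Ciart (ENSMUSG00000038550; chromosome 3, 95878503 to 95882251, minus strand, 5 exons) encodes the repressor CHRONO. Its total RNA was 0.905 and 1.21 RPKM in knockout 1 and 3, against 6.85 and 5.92 RPKM in wild type 2 and 3. Both knockout libraries lay far below both wild-type libraries, with 41 and 61 recovered reads in the knockout against 209 and 193 in the wild type. Counting error alone gives 95% Poisson intervals of 29.4 to 55.6 and 46.7 to 78.4 reads for the knockout libraries, and 182 to 239 and 167 to 222 for the wild-type libraries. The mean was 1.06 ± 0.216 RPKM in the knockout and 6.39 ± 0.655 RPKM in the wild type (SD, n = 2 each). This gave a log2 fold change of -1.84 (SE 0.14, limma adjusted p = 0.00398), the 13th lowest of 12690 genes, and the pseudocount makes it smaller than the -2.60 (SE 0.32) that limma-voom gives on recovered reads. The call was kept without each of the 4 libraries (adjusted p 0.0127 to 0.0219).

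The DEC genes lie on chromosome 6. Bhlhe40 (ENSMUSG00000030103; 108660629 to 108666925, plus strand, 5 exons) had total RNA of 82.4 and 73.1 RPKM in the knockout against 143 and 139 RPKM in the wild type. The groups lay apart, with 1538 and 1517 reads in the knockout and 1800 and 1865 in the shallower wild-type libraries. Its log2 fold change was -0.85 (SE 0.09, adjusted p = 0.0105), and without knockout 3 the call was lost (-0.77, adjusted p = 0.0535). Bhlhe41 (ENSMUSG00000030256; 145858243 to 145865558, minus strand, 5 exons) had 43.7 and 37.6 RPKM in the knockout against 67.7 and 58.8 RPKM in the wild type. It lay just inside the threshold at -0.63 (SE 0.12, adjusted p = 0.047). That call was lost without knockout 1, knockout 3 or wild type 2 (adjusted p 0.112 to 0.172), and it was kept with limma-voom on recovered reads (-0.66, adjusted p = 0.000205). GENCODE M21 places genes on the opposite strand over 118 exonic bases of Bhlhe40, 1280 of Bhlhe41 and 200 of Usp2, and whether reads were counted by strand is not stated.

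Usp2 (ENSMUSG00000032010; chromosome 9, 44067021 to 44095627, plus strand) has several start sites and protein forms. Its total RNA was 69.9 and 58.3 RPKM in the knockout against 89.2 and 86.7 RPKM in the wild type. The groups did not overlap, as was so with the knockout lower in 30.3% of all genes tested. Its log2 fold change of -0.46 (SE 0.11, 95% confidence interval -0.73 to -0.19) was not called by limma (adjusted p = 0.0865). Limma-voom called it (-0.49, adjusted p = 0.00278), but not without knockout 3 (adjusted p = 0.157). Of 40 tested genes of other ubiquitin-specific proteases none was called by limma (9 with an unadjusted p under 0.05). With limma-voom 1 was higher and 4 were lower. Their median was -0.08.

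The KLF genes went different ways in total RNA. Klf15 (ENSMUSG00000030087; chromosome 6, 90462576 to 90475238, plus strand), a regulator of amino acid and lipid metabolism in liver and muscle, had 6.19 and 5.55 RPKM in the knockout against 9.04 and 11.6 RPKM in the wild type. The knockout libraries lay below both wild-type libraries, and the wild-type animals differed from each other by 0.33 log2 units. The log2 fold change of -0.71 (SE 0.15) missed the threshold (adjusted p = 0.0554), passed it without wild type 2 (-0.88, adjusted p = 0.0415) and was called by limma-voom (-0.84, adjusted p = 0.00039) with all libraries and without each of them. Klf9 (ENSMUSG00000033863; chromosome 19, 23141226 to 23168134, plus strand), which thyroid hormone and glucocorticoids induce in brain, had 71.4 and 74.2 RPKM in the knockout against 82.5 and 88.9 RPKM in the wild type. It had 5952 to 8843 total RNA reads per library, and the groups lay apart by little. Its -0.23 (SE 0.09) was not called by limma (adjusted p = 0.206) and just passed with limma-voom (-0.26, adjusted p = 0.0416), which it did not without knockout 1, knockout 3 or wild type 3 (adjusted p 0.167 to 0.453).

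Klf13 (ENSMUSG00000052040; chromosome 7, 63886351 to 63938915, minus strand), a close relative of Klf9, had the opposite direction. Its total RNA was 255 and 186 RPKM in the knockout against 146 and 143 RPKM in the wild type. Both knockout libraries were above the wild type, as was so for 24.7% of all genes tested, and knockout 1 was well above knockout 3, by 0.45 log2 units where the median gene differed by 0.10. The log2 fold change was 0.59 (SE 0.15, adjusted p = 0.0968). It passed without knockout 3 (0.81, adjusted p = 0.0414), and the limma-voom call (0.56, adjusted p = 0.000919) was lost without knockout 1 (0.34, adjusted p = 0.151). Klf10 (ENSMUSG00000037465; chromosome 15, 38291463 to 38300706, minus strand), first described as a gene induced early by TGF-beta, had 1.95 and 2.27 RPKM in the knockout against 1.5 and 1.97 RPKM in the wild type. The groups overlapped, and the difference of 0.19 (SE 0.15, 95% confidence interval -0.18 to 0.56) was called neither by limma (adjusted p = 0.516) nor by limma-voom (0.27, adjusted p = 0.36). The low RPKM of Klf10 does not mean few reads: it had 242 to 606 total RNA reads per library.

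With limma-voom, 6 of the 8 genes were called lower and 1 higher in total RNA, and Klf10 was not called. That test also called far more genes in all, with 12.1% of 13880 genes called, 6.25% lower and 5.88% higher.

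**Figure D2:**
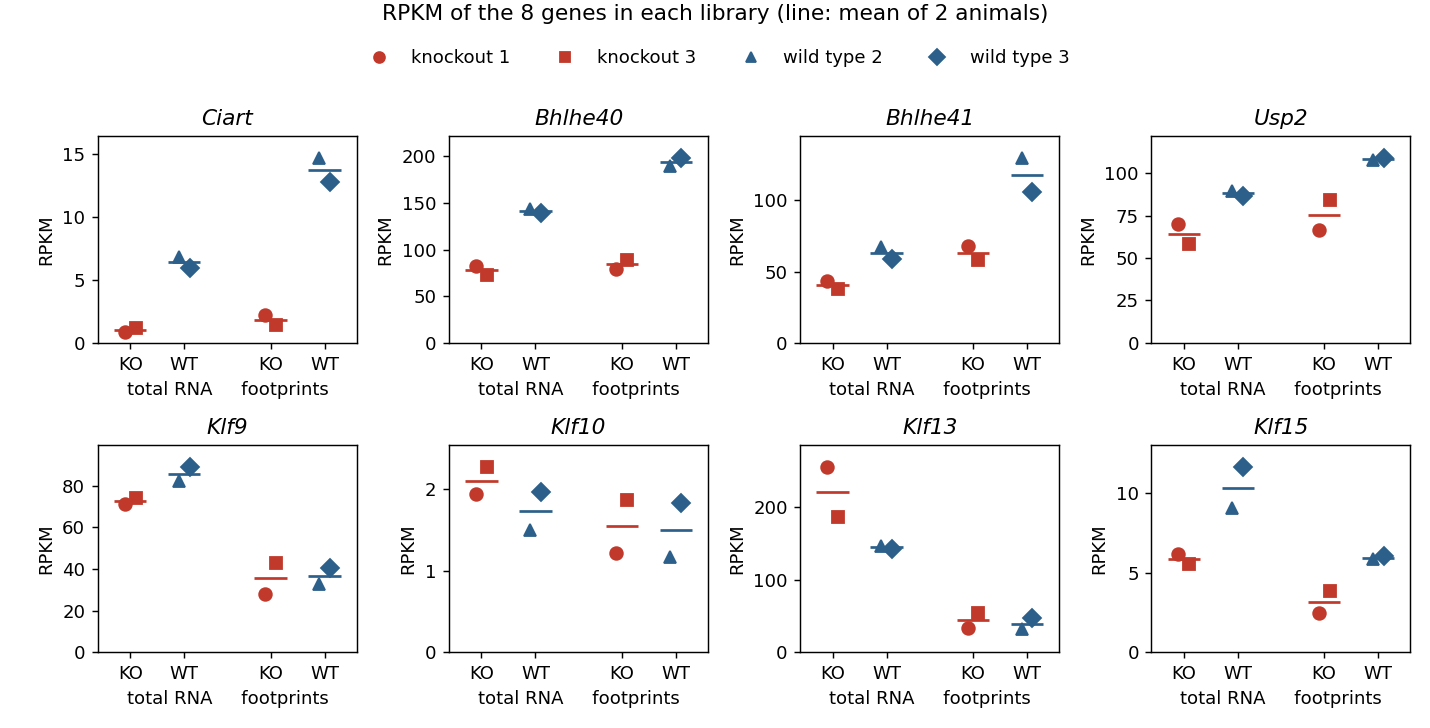
RPKM of each gene in every library, with total RNA on the left and footprints on the right of each panel, knockout in red and wild type in blue, and a line at the mean of 2 animals. Both knockout libraries lie below both wild-type libraries in total RNA and footprints for Ciart, Bhlhe40, Bhlhe41, Usp2 and Klf15, while footprints of Klf9, Klf10 and Klf13 overlap between genotypes. Of all genes tested, 30.3% in total RNA and 22.6% in footprints lie apart with the knockout lower.

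In ribosome footprints, which count ribosomes on all copies of an mRNA, the order of the genes was much the same, and Ciart was the gene called. Footprint calls were rare, with 0.233% of 12447 genes called, 0.104% lower and 0.129% higher, and 10.4% with an unadjusted p under 0.05, as 5 of the 8 genes had. By limma-voom 3 of the 8 were called lower, against 1.51% of 13880 genes called, 0.634% lower and 0.879% higher. Ciart footprints were 2.19 and 1.43 RPKM in the knockout against 14.6 and 12.8 RPKM in the wild type. The groups lay far apart, with 97 and 47 reads in the knockout and 601 and 381 in the wild type. The log2 fold change was -2.40 (SE 0.22, limma adjusted p = 0.0351). Without any one of the 4 libraries the adjusted p was 0.155 to 0.226, in fits in which 1 to 6 genes passed in all, while limma-voom kept the call without each (adjusted p 0.000428 to 0.00947).

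Bhlhe40 footprints were 79.4 and 89.1 RPKM in the knockout against 189 and 198 RPKM in the wild type. The knockout mean was 0.435 of the wild-type mean, with a log2 fold change of -1.19 (SE 0.12) just outside the threshold (adjusted p = 0.054) and called by limma-voom (adjusted p = 0.000582). Bhlhe41 footprints were 67.9 and 58.3 RPKM in the knockout against 130 and 106 RPKM in the wild type, a ratio of means of 0.535. The log2 fold change was -0.89 (SE 0.16, adjusted p = 0.151; limma-voom adjusted p = 0.00723, and 0.198 without wild type 2). All 3 repressor genes thus had lower footprints in each knockout animal than in each wild-type animal, as was so for 22.6% of all genes tested.

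Usp2 footprints were 66.6 and 84.4 RPKM in the knockout against 108 and 109 RPKM in the wild type, and Klf15 footprints 2.46 and 3.83 RPKM in the knockout against 5.83 and 6.04 RPKM in the wild type. The wild-type animals were close to each other and the knockout animals were not. Neither difference was called by limma (Usp2 -0.52, SE 0.15, adjusted p = 0.321; Klf15 -0.76, SE 0.23, adjusted p = 0.331) or by limma-voom (adjusted p = 0.131 and 0.168). Without knockout 3, limma-voom called Usp2 lower (adjusted p = 0.0162).

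Footprints of the other 3 KLF genes overlapped between genotypes. Klf9 had 28.2 and 43.1 RPKM in the knockout against 33.0 and 40.5 RPKM in the wild type, and Klf13 had 33.8 and 54.3 RPKM in the knockout against 31.9 and 46.8 RPKM in the wild type. Klf10 had 1.22 and 1.87 RPKM in the knockout against 1.17 and 1.83 RPKM in the wild type. In these genes the animals of a genotype differed by more than the genotypes did: knockout 1 was below knockout 3 by 0.60 log2 units in Klf9, 0.37 in Klf10 and 0.67 in Klf13, and wild type 2 was below wild type 3 by 0.29, 0.38 and 0.54. The median gene differed by 0.22 between the knockout footprint libraries and by 0.16 between the wild-type ones. The 95% confidence intervals of the genotype difference were wide, at -0.66 to 0.53 for Klf9, -0.67 to 0.72 for Klf10 and -0.58 to 0.87 for Klf13, and the sign of each turned when a library was left out.

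**Figure D3:**
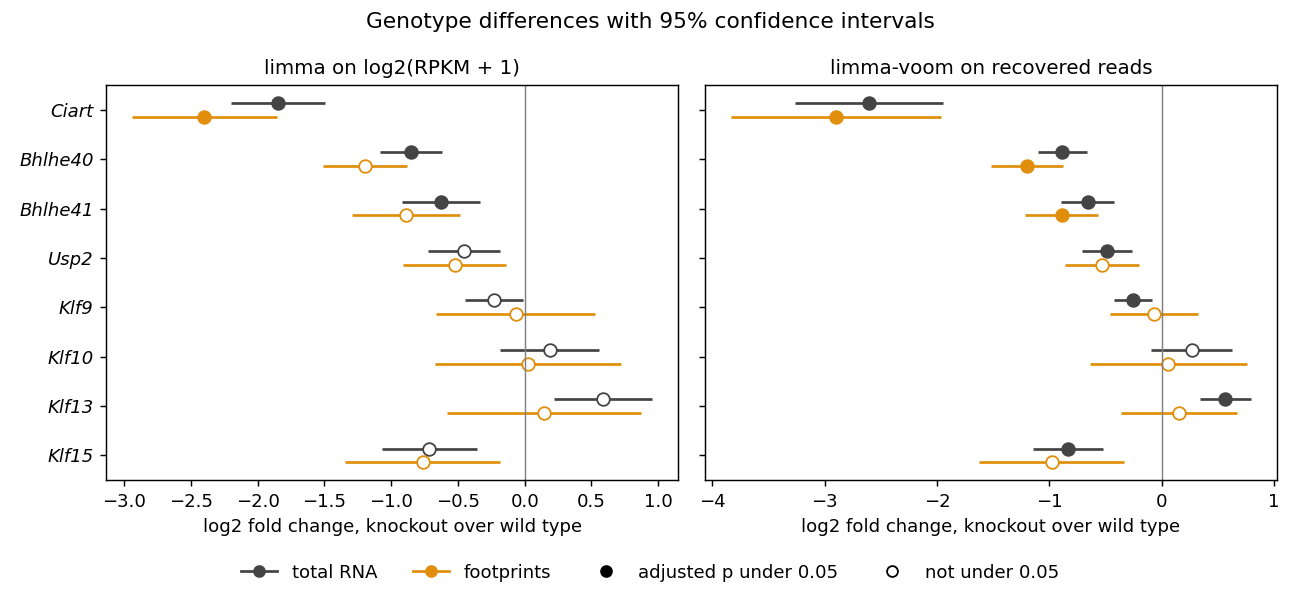
Log2 fold changes, knockout over wild type, with 95% confidence intervals in total RNA (grey) and footprints (orange), by limma on RPKM (left) and by limma-voom on recovered reads (right); filled points have an adjusted p under 0.05. Ciart lies lowest in both, from -1.84 to -2.90, and the footprint intervals of Klf9, Klf10 and Klf13 span 0.

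Translational efficiency relates footprints to total RNA of the same animal. The genotype difference in it, tested as the footprint difference less the total RNA difference on the log2(RPKM + 1) scale, was not called in any of the 8 genes. The ratios given per animal are those the authors deposited, without a pseudocount, so in genes of low RPKM they can differ from the tested value. In all, 0.0165% of 12089 genes (2 genes) were called by limma, both lower in the knockout, and limma-voom called 1 (0.0072% of 13880). None of the 8 had an unadjusted p under 0.05, which 4.55% of genes had by limma and 4.18% by limma-voom. With the animal as a block, since its total RNA and footprints share a lysate, none of the 8 was called either (limma adjusted p = 0.999 for each). Bhlhe40 came nearest. Its ratio was 0.964 and 1.22 in the knockout against 1.32 and 1.43 in the wild type, a difference of -0.34 log2 units (SE 0.15, 95% confidence interval -0.69 to 0.01, limma adjusted p = 0.997). Bhlhe41 had 1.55 and 1.55 in the knockout against 1.92 and 1.80 in the wild type (-0.26, SE 0.21). In these 2 genes both knockout animals were below both wild-type animals, as was so in 17.5% of the genes tested.

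In Ciart the knockout animals fell on either side of the wild type, at 2.42 and 1.18 against 2.14 and 2.16. The tested difference was -0.55 (SE 0.26, 95% confidence interval -1.16 to 0.05) with the pseudocount of 1, -0.38 (SE 0.36) with a pseudocount of 0.1 and -0.30 (SE 0.52, 95% confidence interval -1.42 to 0.82) by limma-voom on recovered reads. In knockout 1 the ratio rests on 97 footprint reads over 41 total RNA reads. Klf13 had 0.133 and 0.292 in the knockout against 0.218 and 0.328 in the wild type (-0.44, SE 0.38). Its rise in total RNA by limma-voom and its overlap in footprints are thus not shown to differ. The ratios were 0.953 and 1.45 in the knockout against 1.21 and 1.25 in the wild type for Usp2, 0.395 and 0.580 against 0.400 and 0.456 for Klf9, 0.629 and 0.824 against 0.784 and 0.929 for Klf10, and 0.398 and 0.690 against 0.645 and 0.520 for Klf15. In these 4 genes the genotypes overlapped, and knockout 1 was below knockout 3.

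The ratio is set side by side between genes here, since a length used for RPKM cancels in it if both kinds of library share that length. Whether they do is not stated. In the wild type, Ciart (2.15, mean of 2 animals) was at the 89.5th percentile of 12089 genes, followed by Bhlhe41 (1.86, 84.4th), Bhlhe40 (1.37, 70.1th) and Usp2 (1.23, 64.0th). Below the median gene (0.965) came Klf10 (0.856, 43.1th), Klf15 (0.582, 23.97th), Klf9 (0.428, 13.9th) and Klf13 (0.273, 5.63th). In this order no 2 neighbours overlapped between the wild-type animals. All 4 KLF genes were thus below the median and the 4 other genes above it. Of the same genes, Klf13 and Klf9 have 3′ UTRs of 5160 and 3225 bases in their principal GENCODE transcripts, at the 96.1th and 86.7th percentile, and Ciart has one of 134 bases, at the 6.22th. That order did not hold for all 8 genes. Bhlhe41 has a 3′ UTR of 4612 bases (94.6th percentile) and Bhlhe40 one of 1596 bases (62.8th), with ratios above the median gene. Klf15 has one of 953 bases (44.6th) and Klf10 one of 1495 bases (60.4th), with ratios below it, and Usp2 has one of 619 bases (31.9th), with a ratio above it. Over 12078 genes the ratio had a Spearman correlation of -0.33 with 3′ UTR length and 0.21 with the coding share of the transcript, across genes that share the same libraries. The coding share was low in Klf13 (13.6%, 2.82th percentile) and Klf9 (16.3%, 4.79th), and also in Bhlhe41 (20.1%, 8.07th), whose ratio was above the median gene. Ribosomes cover coding sequence and total RNA reads cover the whole transcript, and the region counted is not stated. The part of UTR length or coding share in the ratio was not tested.

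**Figure D4:**
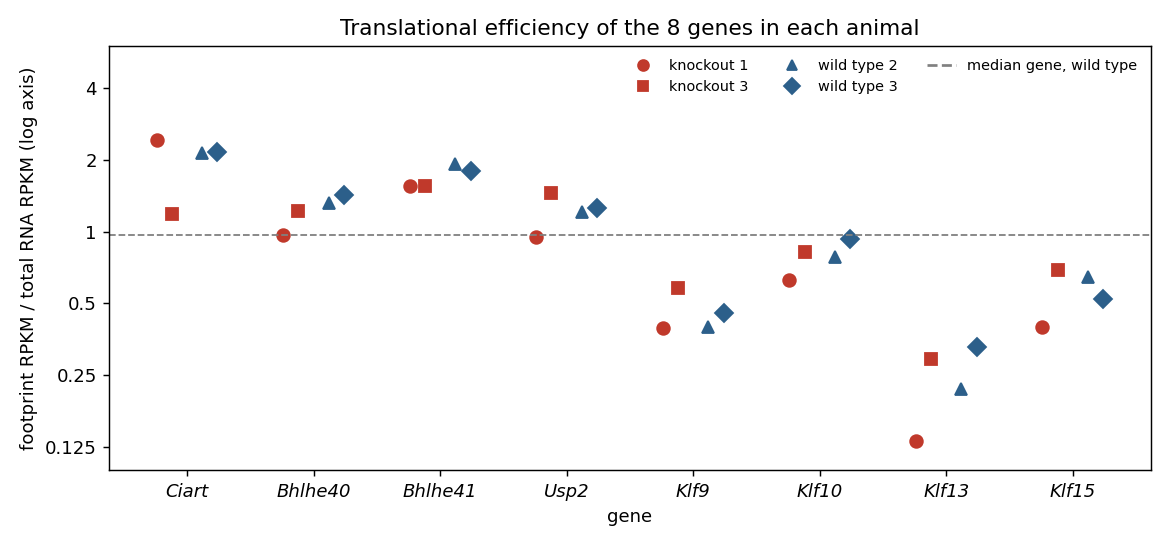
Footprint RPKM over total RNA RPKM of each gene in each animal, on a log axis; knockout animals are red, wild-type animals blue, and the dashed line is the median gene in the wild type (0.965). The KLF genes lie below that line in every animal and the other 4 genes above it, except Bhlhe40 (0.964) and Usp2 (0.953) in knockout 1. The genotypes lie apart in Bhlhe40 and Bhlhe41, as they do with the knockout lower in 17.5% of the genes tested.

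Among the 12 other clock genes with E-boxes known as BMAL1 targets, 9 were called lower and 1, Cry1, higher in total RNA, and in footprints 3 passed the test, all lower: Nr1d2, Dbp and Tef. Their median log2 fold change was -0.99 in total RNA and -1.22 in footprints, against -0.54 and -0.64 for the 8 genes. Ciart at -1.84 in total RNA lay next to Dbp (-1.85) and Nr1d1 (-1.96), above Per3 (-2.52) and Nr1d2 (-3.26). Bhlhe40 lay near Per1 (-0.87) and Wee1 (-0.80) and Bhlhe41 near Hlf (-0.69). Per2 (-1.37) and Tef (-1.11) lay between Ciart and Bhlhe40. These places are on the log2(RPKM + 1) scale, which shrinks differences in genes of low RPKM. By limma-voom Ciart (-2.60) lay below Dbp (-2.11) and Nr1d1 (-2.02), and Wee1 (-1.22) lay below Bhlhe40 (-0.89). Per1 (-0.94) was still near Bhlhe40, and Hlf (-0.72) near Bhlhe41 (-0.66). Of the 9 of these 12 genes with a RefSeq window, 3 held an E-box in it: Cry1, which was called higher, and Per1 and Tef, which were called lower.

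Of 14 other tested KLF and SP family genes none was called in total RNA by limma (3 with an unadjusted p under 0.05, median 0.04), whereas Klf6 was lower by limma-voom. In footprints none of 11 was called (1 with an unadjusted p under 0.05; 0 by limma-voom). None of 5 tested HES and HEY genes, which encode repressors of the same protein class as the DEC genes, was called in total RNA by limma (2 with an unadjusted p under 0.05), whereas Hey2 was lower by limma-voom. None of 7 tested corepressor genes (Sin3a, Sin3b, the class I histone deacetylases and their partners) was called (1 with an unadjusted p under 0.05; 0 by limma-voom), with a median of -0.02.

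Klf9 and Klf15 are also known as glucocorticoid targets. A list of 14 other tested genes held glucocorticoid-induced genes and the receptor genes Nr3c1 (-0.21) and Nr3c2 (-0.32), which were not called by limma. In total RNA Plin4 (-1.65), Zbtb16 (-1.40) and Tsc22d3 (-0.79) fell and Cdkn1a (2.23) rose, with a list median of -0.26. Limma-voom called 8 of 16 lower, Nr3c2 among them, and 1 higher. In footprints limma called Plin4 (-1.99) and Cdkn1a (2.37), while limma-voom called Cdkn1a higher and Tsc22d3 and Zbtb16 lower but not Plin4 (adjusted p = 0.0657). The corticosterone state of the animals is not given, and its part in the values of Klf9 and Klf15 was not tested. Of 10 immediate early genes Egr1 (0.44) was called higher in total RNA, at the edge of the threshold and not by limma-voom, which called Jun and Nr4a3, 1 in each direction. The list median was -0.24.

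**Figure D5:**
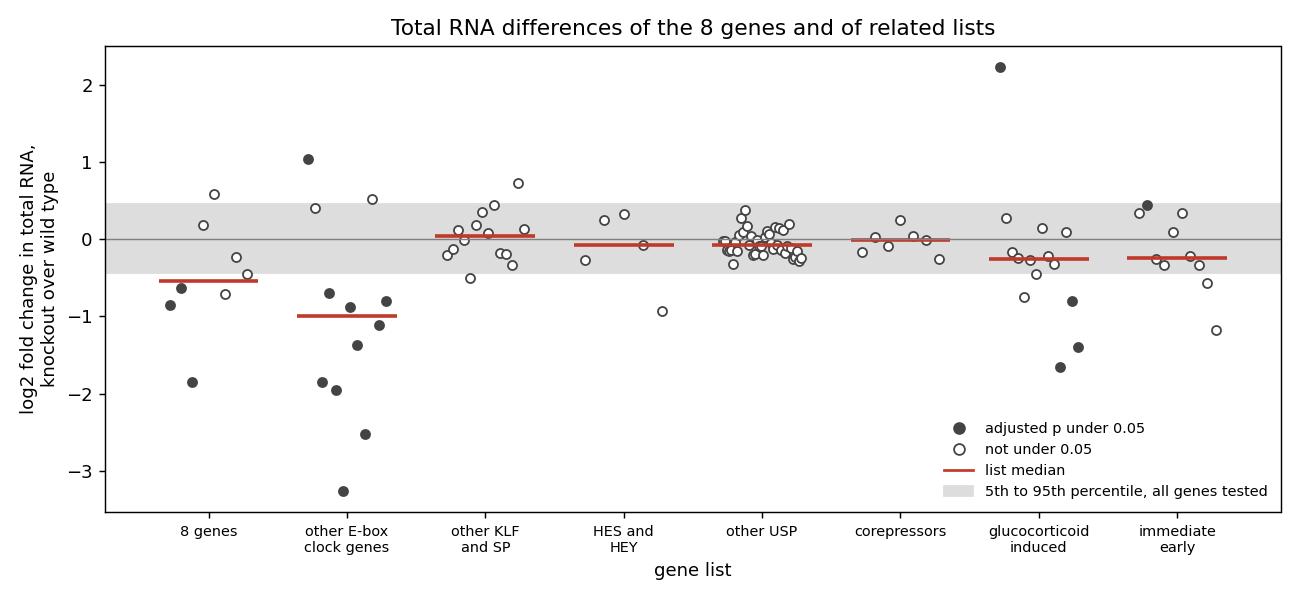
Log2 fold changes in total RNA, knockout over wild type, of the 8 genes and of 7 related lists (each point a gene, filled where the adjusted p is under 0.05; red line, list median; grey band, 5th to 95th percentile of all 12690 genes tested). The 8 genes (median -0.54) and the other E-box clock genes (median -0.99) lie lower than the other KLF and SP genes (median 0.04).

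The genes nearest to the 3 called repressor genes, by Euclidean distance of centred log2(RPKM + 1) over the 8 libraries, were not among the clock genes listed. For Ciart they were Tdo2 (distance 0.61), Sulf1 (0.71) and Nat8f5 (0.81), against a median distance of 3.34 over 12089 genes. Sulf1, a heparan sulfate endosulfatase gene, had mean total RNA of 3.36 RPKM in the knockout and 18.5 RPKM in the wild type, and Tdo2, which encodes a tryptophan-degrading enzyme, 0.415 RPKM in the knockout and 2.48 RPKM in the wild type. For Bhlhe40 they were Fibin (0.38), the mitochondrial folate enzyme gene Mthfd1l (0.43) and Chil1 (0.45), and for Bhlhe41 the phagocytic receptor gene Mertk (0.36), the cation channel gene Trpc5 (0.41) and the matrix proteoglycan gene Vcan (0.42). The distance ranks likeness over 4 animals and carries no test. Its pseudocount of 1 shrinks differences in genes of low RPKM, so near genes can differ in their ratio of RPKM. Mean total RNA in knockout and wild type was 0.311 and 2.05 RPKM for Chil1 and 0.710 and 2.62 RPKM for Fibin. For Bhlhe40 it was 77.7 and 141 RPKM.

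Marker sums of several cell types moved with genotype in the same libraries, and the sums of others overlapped. Summed total RNA levels, in RPM of recovered reads, of 10 oligodendrocyte markers were 4188 and 4081 in the knockout against 6388 and 4779 in the wild type, and those of 10 microglia markers 163 and 170 in the knockout against 226 and 231 in the wild type. Those of 12 granule neuron markers were 8536 and 8402 in the knockout against 6761 and 7288 in the wild type. In these lists limma called Mag (-0.39), C1qb (-0.57) and Ctss (-0.53) lower in total RNA. It called the granule neuron markers Fat2 (0.55), Grin2c (0.73) and Tiam1 (0.39) higher. The oligodendrocyte list was mixed, with 8 negative and 2 positive differences (Cnp 0.28 and Opalin 0.08). Limma-voom called 6 of its markers lower and 1 higher. All 9 tested microglia markers had negative differences, and granule neuron markers had 9 positive and 3 negative ones. Choroid plexus markers were at 1848 and 2182 in the knockout against 869 and 65.9 in wild type 2 and 3, and astrocyte and Bergmann glia markers overlapped, at 5365 and 5270 in the knockout against 5656 and 5299 in the wild type. Purkinje cell markers overlapped too in sum, at 8850 and 9790 in the knockout against 9781 and 10928 in the wild type. So did 8 endothelial markers, at 183 and 158 in the knockout against 162 and 116 in the wild type. Single markers of lists with overlapping sums were still called by limma in total RNA. The astrocyte marker S100b was lower (-0.65, adjusted p = 0.0174) and the endothelial marker Cldn5 higher (0.84, adjusted p = 0.0245). Of the 10 astrocyte and Bergmann glia markers 5 had negative and 5 positive differences in total RNA. Gfap (0.45, limma adjusted p = 0.0515) was just outside the threshold. Limma-voom called Gfap, Aldh1l1 and S100b, 1 higher and 2 lower. Among choroid plexus markers limma called Prlr (3.18) and Sostdc1 (1.61) higher. The 3 brainstem markers with reads in every library were Slc17a6, Tph2 and Slc6a5. They summed to 132 and 134 in the knockout against 228 and 171 in the wild type. Of these, Slc17a6 was called lower (-0.55, limma adjusted p = 0.0277) and Tph2 higher (0.89, limma adjusted p = 0.0402). The part of these differences in the values of the 8 genes was not tested. Wild type 2 and 3, at 869 and 65.9 RPM of choroid plexus markers, had Ciart total RNA of 6.85 and 5.92 RPKM. Their Klf15 total RNA was 9.04 and 11.6 RPKM, and a link to choroid plexus content was not tested.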

How the data were processed

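The authors deposited RPKM per gene and library, per the file headers, and a table of translational efficiency as a ratio. In 47790 values with at least 1 RPKM on both sides, every ratio equalled footprint over total RNA RPKM of the animal within 2%. Bowtie, STAR and Cufflinks were used with mm10, per the submitters' processing notes, with versions and counting rules not given in the sources used here. The mean read count per gene, a signal column deposited by the authors, is the geometric mean of the 8 libraries: with relative depths read from the steps between low values, 100% of 1616 values in genes of mean count below 20 were whole to within 0.1 read, against 21.6% for an arithmetic mean. Reads were recovered so for 13880 genes. The length behind RPKM could not be matched to the genes, so RPKM is compared only within a gene. Of the 10 libraries in the labels, 2 total RNA libraries (knockout 2 and wild type 1) were not analysed here, and the labels' 3 against 3 became 2 against 2.

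Genotypes were compared with limma 3.58.1 (R 4.3.3, variance trend) on log2(RPKM + 1) in genes with a mean of at least 1 RPKM, and efficiency through a genotype by library type interaction term. Adjusted p-values are Benjamini-Hochberg over all genes tested. Fits were tested on simulated data. Alternatives were a pseudocount of 0.1, no filter, quantile normalization, limma-voom on recovered reads, all libraries in 1 fit, the animal as a block, and each library left out, where a lone library is assumed to vary like the others. Per the labels' protocols footprints and total RNA are fractions of 1 lysate, so in the 4 animals with both the numbers pair them. Deviations from the group mean correlated at -0.004 for knockout animals and 0.26 for wild-type animals over 12089 genes. The genes and lists were chosen with earlier results of these data known. Named are the 8 genes, genes of the lists called by limma, some called by limma-voom alone, and the 3 nearest genes of each of the 8 genes called in total RNA. Poisson intervals cover counting error only. P-values in total RNA and in footprints measure the spread between animals. The main efficiency test had no animal term, so its p-values measure the spread between libraries. Gene models are GENCODE M21.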

Additional observations from a re-analysis of the deposited data

How the results depend on the processing

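With 2 animals a genotype, no limma call among the 8 genes withstood every alternative, while the directions in total RNA held under all of them. The count of genes called in total RNA (519) became 26 with no filter, 1684 by limma-voom, 217 with all libraries in 1 fit and 117 to 563 with 1 library left out. In footprints (29) it became 17 with a pseudocount of 0.1, 1 with no filter, 210 by limma-voom, 315 in 1 fit and 1 to 6 with 1 library left out. In translational efficiency (2) it became 5 with a pseudocount of 0.1, 4 with no filter, 0 with quantile normalization, 1 by limma-voom, 1 with the animal as a replicate block, 1 with both, and 0 with any 1 animal left out. The block changed no call of the 8 genes. No paired analysis was possible within total RNA or footprints because the genotypes share only the number 3. Without the filter no gene of the 8 was called: Ciart (-1.84), Bhlhe40 (-0.85) and Bhlhe41 (-0.63) in total RNA and Ciart (-2.40) in footprints were lost at the same fold changes. With a pseudocount of 0.1 Bhlhe41 in total RNA (-0.64) and Ciart in footprints (-2.88) were lost, and Bhlhe41 was also lost with quantile normalization (-0.62) and in 1 fit (-0.63). The cause was not tested. By limma-voom Usp2 (-0.49), Klf9 (-0.26), Klf13 (0.56) and Klf15 (-0.84) gained a call in total RNA, and Bhlhe40 (-1.20) and Bhlhe41 (-0.89) in footprints, as these 2 did in 1 fit (-1.19 and -0.89). With 1 library left out, total RNA values ran from -0.94 to -0.77 (Bhlhe40), -0.73 to -0.52 (Bhlhe41), 0.36 to 0.81 (Klf13) and -0.88 to -0.55 (Klf15). Footprint values ran from -2.59 to -2.20 (Ciart), -0.36 to 0.23 (Klf9), -0.16 to 0.22 (Klf10) and -0.19 to 0.48 (Klf13). Efficiency differences ran from -0.36 to 0.23 (Usp2), -0.11 to 0.43 (Klf9), -1.003 to 0.12 (Klf13) and -0.35 to 0.26 (Klf15). By limma-voom with 1 library left out, chosen after seeing the data, footprints ran from -0.36 to 0.26 (Klf9, 0.069 without wild type 3), -0.30 to 0.42 (Klf10, -0.21 without knockout 3) and -0.16 to 0.54 (Klf13, -0.15 without wild type 2). Efficiency differences by limma-voom ran from -0.83 to 0.18 (Ciart), -0.34 to 0.27 (Usp2), -0.076 to 0.49 (Klf9), -0.39 to 0.036 (Klf10), -0.95 to 0.20 (Klf13) and -0.50 to 0.30 (Klf15). Depth limits Ciart most, with 41 total RNA reads in knockout 1.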
